A study of Mus musculus with 6 samples.

Results

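The 7 genes described here encode the phosphofructokinases (Pfkm, Pfkl and Pfkp) and the bifunctional PFKFB enzymes (Pfkfb1, Pfkfb2, Pfkfb3 and Pfkfb4) of the mouse. They were picked out by symbol as 2 enzyme families, with earlier results of these data known. Each matched 1 Ensembl identifier among the 49315 genes of the count table, and all 7 had enough counts to be tested. The series holds bulk RNA-seq gene counts from C57BL/6 mouse hearts, 3 of them wild-type and 3 carrying a conditional Txnip C247S knock-in. Txnip is the thioredoxin-interacting protein, which restrains glucose uptake, and the substitution replaces a cysteine that takes part in binding thioredoxin. The treatment label of both genotypes names MerCreMer, a Cre recombinase switched on by tamoxifen, and 4-hydroxytamoxifen. Whether the recombinase was present in the wild-type animals is not clear from it. Its promoter and the age and sex of the mice are not known here. The question was whether transcripts of this regulated step of glycolysis differ between the genotypes.

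Phosphofructokinase commits sugar to glycolysis by adding a second phosphate to fructose phosphate. The enzyme is a tetramer, and Pfkm, Pfkl and Pfkp encode the muscle, liver and platelet subunits. Its strongest activator is a fructose bisphosphate that the PFKFB enzymes make with a kinase domain and remove with a phosphatase domain in the same chain. Pfkfb2 is known as the heart isozyme, which insulin and adrenaline switch on by phosphorylation. Pfkfb1 is known from liver and skeletal muscle, Pfkfb3 is the inducible isozyme with high kinase activity, and Pfkfb4 is known from testis and from hypoxic cells.

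The libraries held 14146048 to 15620476 counts. The targeted gene Txnip had 10614, 11428 and 10708 counts in the wild-type hearts and 6734, 5938 and 6301 in the knock-in hearts, so the groups did not overlap. Such counts cannot show the substitution itself. Markers of cardiomyocytes were abundant in every heart, among them Tnnt2 at 6565 to 8340 CPM (counts per 1000000 counts, TMM-scaled). The adipocyte list summed to at most 0.484 CPM, and 2 of its 4 genes had no count. Wild-type replicate 3 stood apart with 28.0% of its counts from the mitochondrial chromosome, against 22.9% to 24.3% in the other hearts.

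The promoters of 3 members hold the letters CACGTG, an E-box. E-boxes are part of the sites bound by the glucose-responsive factors MondoA and ChREBP, for which Txnip is a well-known target gene. Of E-boxes only the exact letters CACGTG were searched, not whole sites of those factors. Those of Pfkm, Pfkfb2 and Pfkfb3 are shown because they are the members whose windows hold these letters. RefSeq (GRCm38.p6) gave 16 promoter windows of 300 bases for the 7 members, several for a gene with several start sites. Of the 16 windows 3 held CACGTG, as did 7.15% of all 32851 windows. The hypoxia-factor core ACGTG, which is also part of CACGTG, was in 6 of the 16 windows and in 19.6% of all windows. The other form of that core, GCGTG, was in 9 of the 16 and in 32.4% of all. Both strands were searched. In the sequences, capitals mark the E-box, which lies 136 bases before the start site of its window in Pfkm, 22 in Pfkfb2 and 53 in Pfkfb3. Each of these genes also has windows at other start sites, and those held no CACGTG. The Pfkm stretch is on the plus strand at chr15:98092393-98092472, that of Pfkfb2 on the minus strand at chr1:130715824-130715903, and that of Pfkfb3 on the minus strand at chr2:11502124-11502203.
Pfkm: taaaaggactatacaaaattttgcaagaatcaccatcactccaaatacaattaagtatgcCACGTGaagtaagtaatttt
Pfkfb2: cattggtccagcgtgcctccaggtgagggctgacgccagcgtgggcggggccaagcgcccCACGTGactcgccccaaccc
Pfkfb3: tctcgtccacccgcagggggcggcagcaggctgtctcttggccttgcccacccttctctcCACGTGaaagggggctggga
The windows of Pfkl, Pfkp, Pfkfb1 and Pfkfb4 held neither CACGTG nor ACGTG. A match of letters describes the window and does not show that a factor binds there.

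Pfkm transcripts far outnumbered all other members when levels were compared per exon length. The level of Pfkm ran from 284 to 360 CPM per kilobase of exon over the 6 hearts, and its lowest value lay above the highest of any other member. Pfkl followed at 18.9 to 24.1 and Pfkp at 3.69 to 5.28 CPM per kilobase, with no overlap between these neighbours. The choice of length bears on these values: per longest transcript the means of 6 hearts were 37.0 in place of 20.6 for Pfkl, 6.70 in place of 4.34 for Pfkp and 3.71 in place of 2.30 for Pfkfb2. Among the PFKFB genes the order of mean levels was Pfkfb2, Pfkfb1, Pfkfb3 and Pfkfb4, at 2.30, 1.67, 1.16 and 0.671 CPM per kilobase (means of 6 hearts; SD 0.789, 0.587, 0.422 and 0.210). Their ranges overlapped between neighbours. Pfkfb2 was above Pfkfb1 in 6 of 6 hearts, Pfkfb1 above Pfkfb3 in 4 of 6 and Pfkfb3 above Pfkfb4 in 5 of 6. Pfkp was above Pfkfb2 in 6 of 6 hearts, but in 5 of 6 when the longest transcript was used as the length.

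**Figure D1:**
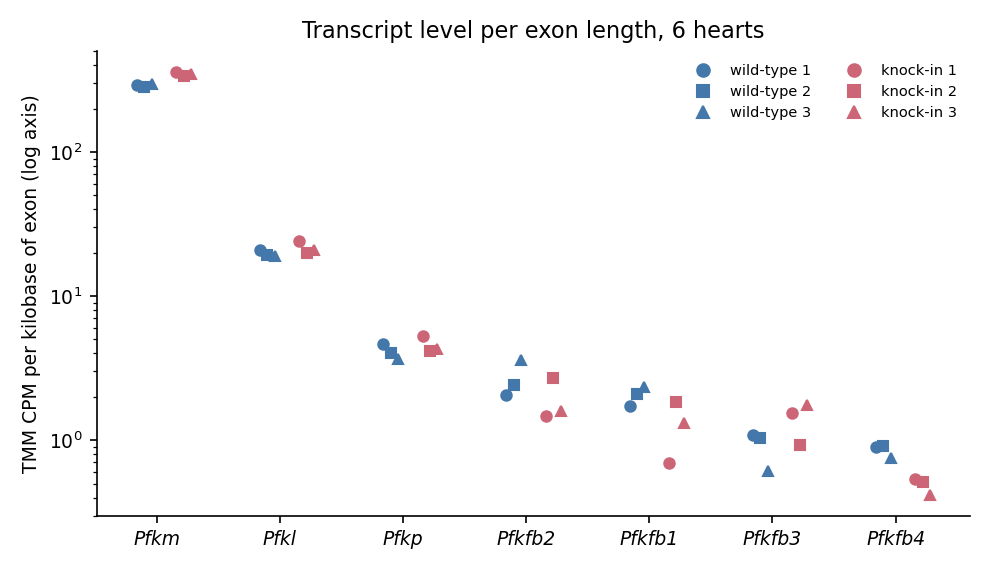
Level of each member in each heart, as TMM-scaled CPM per kilobase of exon on a log axis, with 1 point per heart. Pfkm sits between 284 and 360, above Pfkl at 18.9 to 24.1, and the 4 PFKFB genes lie lowest with overlapping ranges.

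Among the phosphofructokinase subunits Pfkm made up 92.0% to 93.0% of the summed level per length in wild-type hearts and 92.5% to 93.4% in knock-in hearts. Pfkl made up 5.89% to 6.53% and 5.49% to 6.18%, and Pfkp 1.15% to 1.45% and 1.14% to 1.35%. The make-up of the subunits therefore overlapped between the genotypes for each of the 3 genes.

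None of the 7 members passed the test of knock-in against wild-type hearts (edgeR quasi-likelihood, Benjamini-Hochberg adjusted p under 0.05). Of all 12777 tested genes 0.297% were called, 0.11% higher and 0.188% lower. DESeq2 and limma-voom called none of the 7 either. With an unadjusted p under 0.05 stood 4 of 7 members, against 9.97% of all tested genes. Pfkm and Pfkfb3 were the 2 on the higher side, where 4.74% of all genes stood, and Pfkfb1 and Pfkfb4 the 2 on the lower side, where 5.23% stood. The 3 knock-in values lay outside the wild-type range for 2 of 7 members, against 16.1% of all tested genes. These were Pfkm above it, as for 8.12% of all genes, and Pfkfb4 below it, as for 7.99%. The median log2 fold change, knock-in over wild-type, was 0.13 over the members and −0.0068 over all tested genes.

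Pfkm, the muscle subunit, had 983, 948 and 996 CPM in the wild-type hearts and 1203, 1134 and 1156 CPM in the knock-in hearts. Each knock-in heart lay above each wild-type heart. The means were 976 ± 25.2 and 1165 ± 35.1 CPM (SD, n = 3), with a log2 fold change of 0.26 ± 0.08 (SE; 95% interval 0.07 to 0.44, adjusted p = 0.310). This corresponds to a ratio of 1.19, with an interval from 1.05 to 1.36. Permuting the 6 values exactly (two-sided permutation test) gave p = 0.1, the smallest that 3 against 3 allows. Pfkm (ENSMUSG00000033065) lies on chromosome 15 from 98092589 to 98132451 (GRCm38, plus strand). It shares 341 exonic bases with Gm26513 on the same strand, a gene model with 1 to 4 counts per library. It is the member with the most counts, 13682 to 18490 per library, and its values spread by 2.58% (wild-type) and 3.01% (knock-in) of the mean, where counting alone gives 0.840% and 0.755%. The summed level of 7 cardiomyocyte markers was also higher in the knock-in hearts, at 55489 to 58522 against 47322 to 51626 CPM. Of these markers 6 of 7 had positive log2 fold changes, 1 (Myl2) was called and none was at 0. The knock-in values lay wholly above the wild-type values for 2 of 7, as for 8.12% of all tested genes. These were Myl2 and Tnnt2, the latter with a log2 fold change of 0.25 ± 0.08 (adjusted p = 0.322 in edgeR). Without Myl2 the other 6 summed to 36203 to 41672 CPM in wild-type and 39689 to 43250 CPM in knock-in hearts, which overlapped. The part of these markers in the Pfkm values was not tested. In bulk tissue, a change in the number of cells of a type and a change in RNA per cell cannot be told apart.

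Pfkl, the liver-type subunit, had 139, 129 and 126 CPM in wild-type and 161, 133 and 139 CPM in knock-in hearts. Knock-in replicate 1 was the highest of all, and the groups overlapped. The log2 fold change was 0.13 ± 0.10 (95% interval −0.10 to 0.36, adjusted p = 0.748), and without knock-in replicate 1 it was 0.06. Red cells carry the liver-type subunit, and the 6 erythroid markers, all called higher, summed to 487 to 664 CPM in wild-type and 1492 to 1961 CPM in knock-in hearts. Their part in the Pfkl values was not tested. The gene lies on chromosome 10 (ENSMUSG00000020277, 77986947 to 78010083, minus strand).

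Pfkp, the platelet-type subunit, had 62.2, 54.2 and 49.4 CPM in wild-type and 70.7, 55.3 and 57.2 CPM in knock-in hearts. As for Pfkl, knock-in replicate 1 was the highest heart and wild-type replicate 3 the lowest, and the groups overlapped. The log2 fold change of Pfkp was 0.14 ± 0.13 (95% interval −0.14 to 0.43, adjusted p = 0.782). It was 0.04 with knock-in replicate 1 left out, 0.07 with wild-type replicate 3 left out, and 0.24 and 0.22 with wild-type replicate 1 or knock-in replicate 2 left out. The 4 platelet markers summed to 26.7 CPM in knock-in replicate 1, the highest heart, and to 11.1 to 21.5 CPM in the other 5. None was called or at 0, and their part in the Pfkp values was not tested. Pfkp (ENSMUSG00000021196) lies on chromosome 13 from 6579768 to 6648777 on the minus strand and shares 748 exonic bases with Pitrm1 on the opposite strand. No source used here says whether counting kept the strand, so reads from those bases cannot be told apart.

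**Figure D2:**
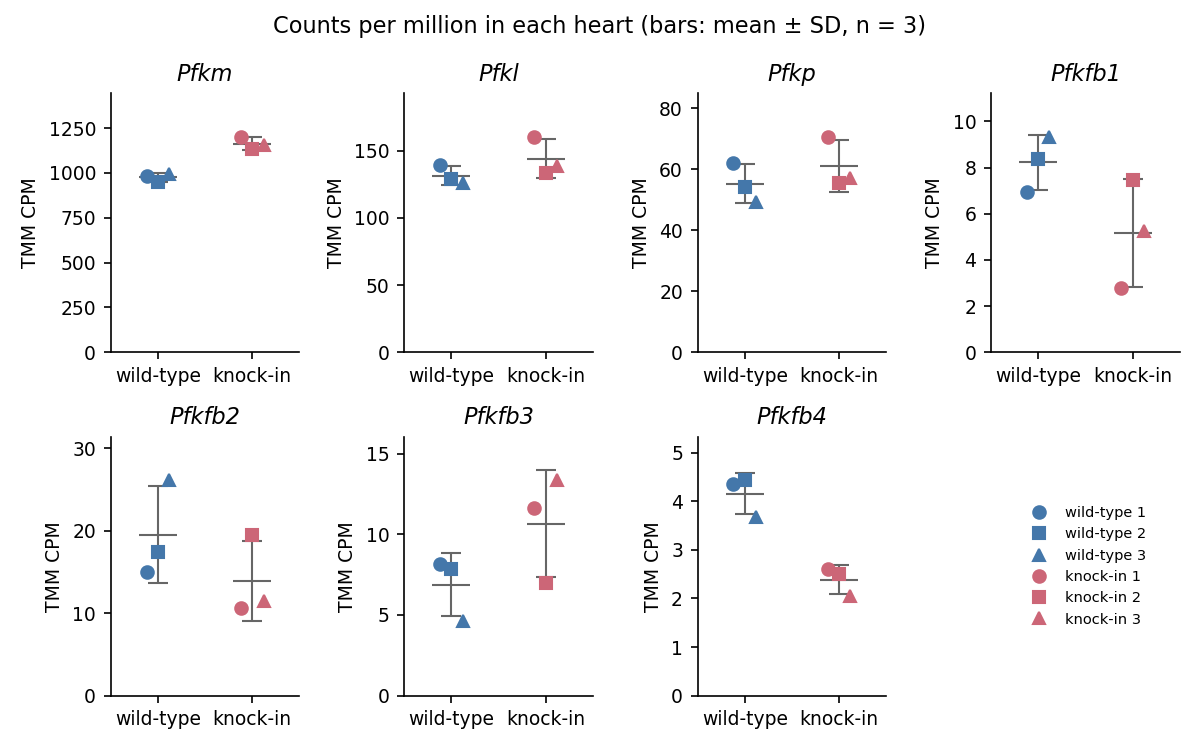
CPM of the 7 members in each heart, with 1 panel per gene, an axis from 0, points for single hearts and bars for the mean ± SD of 3 hearts. The knock-in points lie wholly above the wild-type points for Pfkm and wholly below them for Pfkfb4, and the groups overlap in the other 5 panels.

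Pfkfb4 had the smallest p of the 7 members. Its counts were 64, 64 and 53 in the wild-type hearts and 40, 38 and 30 in the knock-in hearts. On the scaled level these were 4.36, 4.43 and 3.67 against 2.60, 2.50 and 2.04 CPM, so each knock-in heart lay below each wild-type heart. The means were 4.15 ± 0.423 and 2.38 ± 0.298 CPM (SD, n = 3). The log2 fold change was −0.80 ± 0.22 (SE; 95% interval −1.27 to −0.32) with an unadjusted p of 0.00350 and an adjusted p of 0.211 in edgeR. The exact permutation test gave p = 0.1. In the order of p-values over all tested genes Pfkfb4 stood at place 211 and Pfkm at place 454. The spread of Pfkfb4 between hearts of a genotype, 10.2% and 12.5% of the mean, was no larger than counting alone gives, 12.9% and 16.7%. The 95% Poisson intervals of single counts, which cover counting error only, reached from 39.7 to 69.3 in the lowest wild-type heart and from 28.6 to 54.5 in the highest knock-in heart, and so overlapped. The gene lies on chromosome 9 (ENSMUSG00000025648, 108991778 to 109032228, plus strand), overlaps no other annotated gene and shares 0.145% of its 32-base words with other genes.

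Beside the lower Pfkfb4 values, the 9 markers of macrophages and monocytes summed to 334 to 386 CPM in wild-type and 253 to 272 CPM in knock-in hearts. All 9 had negative log2 fold changes, 1 (Lyz2) was called lower and none was at 0. Their part in the Pfkfb4 difference was not tested. By the root-mean-square difference of centred log2 CPM over the 6 hearts, the genes nearest to Pfkfb4 among 7338 were Abcb9, a lysosomal peptide transporter (0.07), Nr1h3, the nuclear receptor LXR alpha (0.08), and Ccl6, a chemokine of myeloid cells (0.11). Pfkfb4 itself varied by 0.41 around its own mean on this scale. Of these 3 genes Ccl6 was called (log2 fold change −0.71 ± 0.12, adjusted p = 0.0399 in edgeR), with 20.5, 22.2 and 19.6 CPM in wild-type and 13.3, 12.3 and 12.4 CPM in knock-in hearts. Around Pfkm, the nearest genes were Trappc3, a subunit of a vesicle-tethering complex (0.03), Rabggtb, a subunit of the enzyme that adds lipid to Rab proteins (0.03), and Ikbip (0.04), where Pfkm varied by 0.13 around its mean.

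Pfkfb2, the heart isozyme, had 15.0, 17.4 and 26.2 CPM in the wild-type hearts and 10.7, 19.5 and 11.5 CPM in the knock-in hearts. Wild-type replicate 3 was the highest, knock-in replicate 2 lay above both other wild-type hearts, and the groups overlapped. The log2 fold change was −0.49 ± 0.27 (95% interval −1.11 to 0.13, adjusted p = 0.629). With wild-type replicate 3 left out it was −0.22. Leaving out knock-in replicate 1 in its place gave −0.32, and leaving out knock-in replicate 2 gave −0.81. Pfkfb2 spread by 30.1% and 35.1% of the mean within the genotypes, where counting gives 5.94% and 6.91%. As a ratio, the interval of the difference reached from 0.463 to 1.10 of the wild-type level. Pfkfb2 (ENSMUSG00000026409) lies on chromosome 1 from 130689182 to 130729253 on the minus strand. Of its 7254 exonic bases 1262 are shared with Gm29427 on the same strand, a gene model with 0 to 5 counts per library. How reads that match both genes were counted is not stated, so the level of Pfkfb2 per length is uncertain.

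Pfkfb1, the isozyme known from liver and skeletal muscle, had 6.95, 8.38 and 9.34 CPM in wild-type and 2.80, 7.44 and 5.25 CPM in knock-in hearts. Knock-in replicates 1 and 3 were the lowest of all, and knock-in replicate 2 lay within the wild-type range. The log2 fold change was −0.67 ± 0.29 (95% interval −1.33 to −0.02; unadjusted p = 0.0458, adjusted p = 0.488 in edgeR). It was −0.36 with knock-in replicate 1 left out and −1.03 with knock-in replicate 2 left out. Of the 6 skeletal muscle markers, Acta1, which cardiomyocytes also express, had 400 to 778 CPM in wild-type and 130 to 1225 CPM in knock-in hearts. The other 5 had at most 15 counts in any library and summed to 0.138 to 0.273 CPM in wild-type and 0.198 to 2.02 CPM in knock-in hearts, and Myh2 was at 0 in all. The spread of Pfkfb1 between knock-in hearts was 45.0% of their mean, where counting gives 11.3%. The gene lies on the X chromosome (ENSMUSG00000025271, 150588229 to 150643878, plus strand) and shares 123 exonic bases with Apex2 on the opposite strand, which had 55 to 108 counts per library.

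Pfkfb3, the inducible isozyme, had 8.18, 7.83 and 4.64 CPM in wild-type and 11.6, 6.98 and 13.4 CPM in knock-in hearts. Knock-in replicates 1 and 3 were the highest of all, while knock-in replicate 2 lay within the wild-type range. The log2 fold change was 0.63 ± 0.27 (95% interval 0.03 to 1.24; unadjusted p = 0.0427, adjusted p = 0.478 in edgeR). It was 0.41 with wild-type replicate 3 left out. With no filter on low counts edgeR gave an adjusted p of 0.0427 and the value 0.63 ± 0.18, so the call depended on that choice. That run called 317 of 21655 tested genes, against 38 of 12777 with the filter. Endothelial cells are known to use Pfkfb3, and the 6 endothelial markers summed to 654, 472 and 546 CPM in wild-type and 672, 464 and 646 CPM in knock-in hearts. The sums overlapped between the genotypes. None of these markers was called or at 0, and 5 were positive and 1 negative, where 48.3% of all tested genes were positive. Knock-in replicate 2 had the lowest endothelial sum, while wild-type replicate 3 had the lowest Pfkfb3 value. The part of these markers in the Pfkfb3 values was not tested. The gene lies on chromosome 2 (ENSMUSG00000026773, 11471433 to 11554077, minus strand).

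Across the hearts Pfkfb3 ran nearly opposite to Pfkfb2, a pattern noticed after the values were seen. From the highest to the lowest Pfkfb2 value the hearts were wild-type 3, knock-in 2, wild-type 2, wild-type 1, knock-in 3 and knock-in 1. The same sequence gave Pfkfb3 values of 4.64, 6.98, 7.83, 8.18, 13.4 and 11.6 CPM, higher at each step but the last. Pfkfb1 took the same sequence as Pfkfb2 except that knock-in 2 and wild-type 2 changed places. The sequence was not particular to this family, since Hif1a, Vegfa and the cardiomyocyte marker Ryr2 took it exactly as Pfkfb2 did. Along it Hif1a had 51.1, 46.8, 45.0, 39.1, 37.9 and 36.7 CPM. Vegfa had 118, 99.3, 96.2, 89.0, 75.1 and 73.0 CPM. The ratio of Pfkfb2 to Pfkfb3 per length was 1.91, 2.32 and 5.88 in the wild-type hearts. It was 0.955, 2.91 and 0.899 in the knock-in hearts. Pfkfb3 was thus the more abundant of the pair in knock-in replicates 1 and 3, and Pfkfb2 in the other 4 hearts. Wild-type replicate 3, with the highest ratio, also had the highest mitochondrial share of counts (28.0%), and the part of that share in the ratio was not tested.

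**Figure D3:**
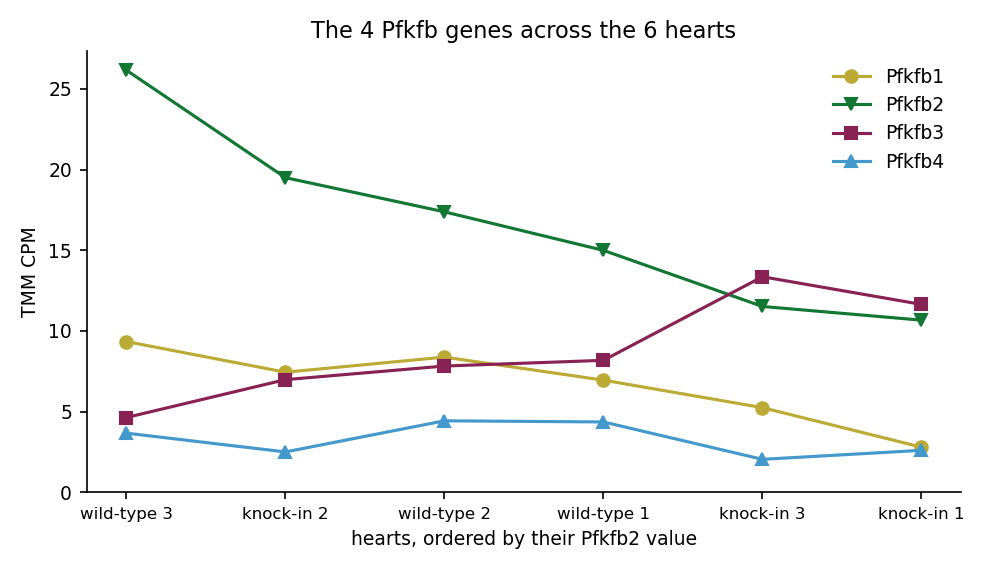
CPM of the 4 PFKFB genes, with the 6 hearts placed from the highest to the lowest Pfkfb2 value (lines join the points of 1 gene and mark no order in time). Pfkfb3 is at 4.64 in the heart where Pfkfb2 is at 26.2 and at 11.6 where Pfkfb2 is at 10.7, and knock-in 2 lies among the wild-type hearts.

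The share of Pfkfb3 in the summed PFKFB level per length was 18.7%, 16.1% and 8.40% in wild-type hearts and 36.3%, 15.4% and 34.8% in knock-in hearts. Pfkfb2 made up 35.8% to 49.4% and 31.3% to 45.0%, Pfkfb1 30.0% to 32.5% and 16.4% to 31.0%, and Pfkfb4 10.3% to 15.5% and 8.26% to 12.6%. All 4 shares overlapped between the genotypes. The ratio of Pfkfb3 to Pfkfb4 counts did not overlap, at 1.88, 1.77 and 1.26 in wild-type and 4.48, 2.79 and 6.53 in knock-in hearts. Pfkfb3 and Pfkfb4 are both known targets of hypoxia-inducible factors. The summed level of the phosphofructokinase subunits over that of the PFKFB genes, per length, was 55.4, 47.8 and 44.0 in wild-type and 91.8, 60.8 and 73.1 in knock-in hearts. These ratios were formed from members whose values were known, and carry no test.

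**Figure D4:**
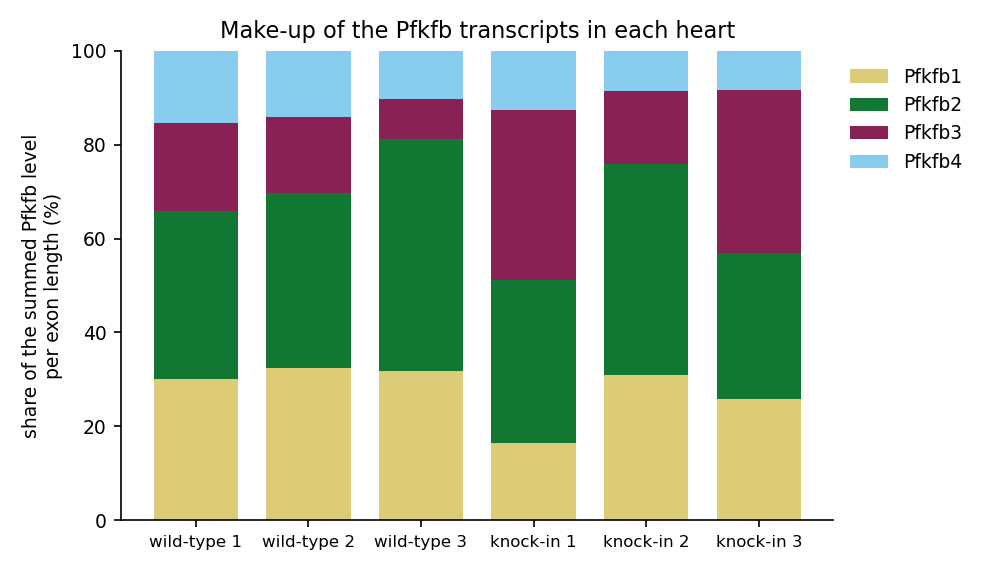
Stacked bars, 1 per heart, of the share of each PFKFB gene in their summed level per exon length (percent, axis from 0 to 100). Pfkfb3 makes up 36.3% and 34.8% in knock-in 1 and knock-in 3 and at most 18.7% in the other 4 hearts.

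None of the other glycolysis genes was called. Of 17 genes on the list 16 were tested, with 12 positive and 4 negative log2 fold changes and a median of 0.12, where 48.3% of all tested genes were positive. Those with an unadjusted p under 0.05 were 4 higher ones (Gapdh, Ldha, Tpi1 and Pkm) and 0 lower ones, against 4.74% and 5.23% of all tested genes. The knock-in values lay wholly above the wild-type values for the same 4, as for 8.12% of all tested genes. They lay wholly below them for Slc2a4, the insulin-responsive glucose transporter (−0.20 ± 0.10, adjusted p = 0.527), as for 7.99% of all tested genes. Gapdh, the dehydrogenase of triose phosphate, had the smallest p, with 3898, 3629 and 3126 CPM in wild-type and 5170, 4188 and 4455 CPM in knock-in hearts. Its log2 fold change was 0.37 ± 0.11 (95% interval 0.13 to 0.62, adjusted p = 0.258 in edgeR). Values of Gpi1, the isomerase just before phosphofructokinase (0.18 ± 0.10), and Aldoa, the aldolase just after it (0.06 ± 0.11), lay nearer to 0.

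**Figure D5:**
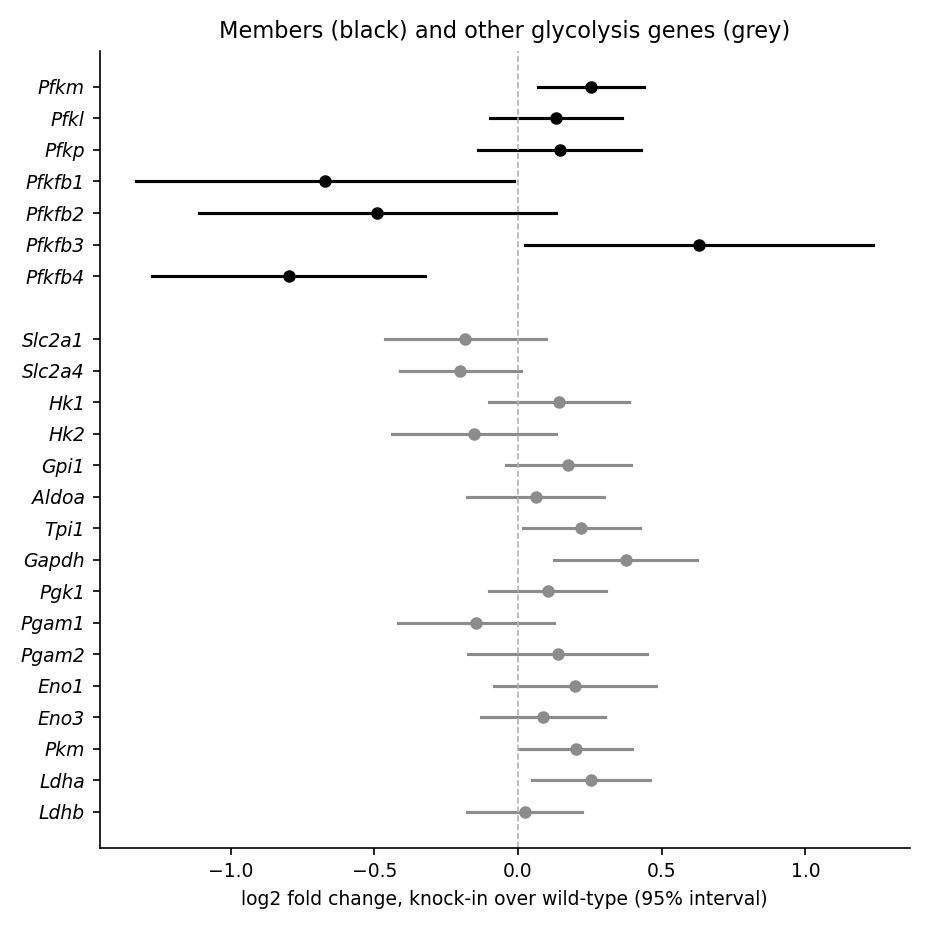
Log2 fold change, knock-in over wild-type, with 95% intervals, of the 7 members (black) and the 16 tested genes of the rest of glycolysis (grey), with a dashed line at 0. The intervals of Pfkm, Pfkfb1, Pfkfb3 and Pfkfb4 exclude 0 before adjustment, and the PFKFB intervals are wider than those of the enzymes of the main pathway.

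Enzymes that compete for fructose phosphate or reverse the step were also read. Of 11 genes in that list 9 were tested and none was called. Their log2 fold changes were positive for 7 and negative for 2 (median 0.09), where 48.3% of all tested genes were positive. Gpi1 and Aldoa, both positive, are also on the glycolysis list. Gfpt2, which feeds the hexosamine pathway, had the smallest p, with 9.27, 11.4 and 16.1 CPM in wild-type and 7.87, 7.25 and 6.48 CPM in knock-in hearts (log2 fold change −0.77 ± 0.20, adjusted p = 0.202). The knock-in values of Gfpt2 lay wholly below the wild-type values, as for 7.99% of all tested genes. Those of Taldo1, on the same list, lay wholly above them (0.19 ± 0.10, adjusted p = 0.591 in edgeR), as for 8.12%. Fbp2, the muscle fructose bisphosphatase that runs opposite to phosphofructokinase, stood at 14.4 ± 2.52 and 19.8 ± 2.88 CPM (0.46 ± 0.16, adjusted p = 0.350) and overlapped. Tigar, a phosphatase that removes the activator made by the PFKFB enzymes, had −0.09 ± 0.15. Fbp1, the liver bisphosphatase, had 0 or 1 count per library.

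Genes known to regulate the PFKFB enzymes after translation gave no call. Of 14 kinase and phosphatase subunits 8 were positive and 6 negative (median 0.08), where 48.3% of all tested genes were positive. With an unadjusted p under 0.05 stood 2 higher and 0 lower ones, against 4.74% and 5.23% of all tested genes. Prkag2, a regulatory subunit of AMP-activated kinase, had the smallest p, at 21.5 ± 1.56 against 26.8 ± 1.54 CPM (0.32 ± 0.12, adjusted p = 0.381). Akt1 and Akt2, kinases of the insulin pathway that act on the heart isozyme, had −0.09 ± 0.11 and 0.08 ± 0.09. Of the 3 ubiquitin ligase parts that act on phosphofructokinase or Pfkfb3 none was called, and Btrc had the smallest p (0.20 ± 0.12, adjusted p = 0.655).

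The hypoxia response is read here through genes outside the family. Of 18 genes, some of them also on the glycolysis list, 17 were tested and none was called. The log2 fold changes were positive for 11 and negative for 6 (median 0.02), where 48.3% of all tested genes were positive. Pfkfb3 and Pfkfb4, named above as targets of these factors, had 0.63 and −0.80. The other members had 0.26 (Pfkm), 0.13 (Pfkl), 0.14 (Pfkp), −0.67 (Pfkfb1) and −0.49 (Pfkfb2), and which of them are targets was not examined. Ldha, the lactate dehydrogenase of muscle, had the smallest p (0.25 ± 0.09, adjusted p = 0.382). Hif1a and Epas1, the factors themselves, had −0.16 ± 0.14 and 0.02 ± 0.12.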

How the data were processed

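The authors deposited 1 table of whole-number read counts per gene, with 1 column per heart and no normalization. The build GRCm38.p6 and the tools STAR, DESeq2, featureCounts and Subread 1.5.2 stand without roles per the submitters' processing notes. The sources used here do not name the annotation release, strand setting or handling of multiply matching reads. Columns were matched to samples by description, and the replicate numbers only name hearts. Library totals ran from 14146048 to 15620476, so 0.192 to 0.212 CPM is the level of 3 counts. Intervals of counts are Poisson intervals, which cover counting error only. No use of molecular identifiers is known here, and the intervals take no account of copied reads. Each library is called a heart here, but the labels do not say that the 3 samples of a genotype came from separate animals. The p-values therefore measure the spread between these samples.

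The test was that of edgeR 4.0.16 under R 4.3.3, with filterByExpr, TMM scaling, a robust quasi-likelihood fit on genotype over all 6 libraries, and Benjamini-Hochberg adjustment over all 12777 tested genes. The SE is the log2 fold change over the square root of F, and 95% intervals use the fit's degrees of freedom. Symbols, positions and exon lengths came from GENCODE M21 (GRCm38), which held 48970 of the 49315 identifiers, and promoter sequences from RefSeq (GRCm38.p6). Levels per length divide TMM CPM by all exonic bases of a gene. The functions were tested on simulated counts.

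The members and gene lists were chosen with earlier results of these data known. Named genes are the 7 members, in each pathway list the called genes or the 1 with the smallest p, and the 3 genes (mean of at least 10 CPM, no predicted genes) nearest to Pfkm and to the member with the smallest p. Gpi1, Aldoa, Tpi1, Pkm, Slc2a4, Fbp2, Taldo1, Tigar, Fbp1, Akt1, Akt2, Hif1a, Epas1 and Vegfa were named after their values were seen. So were the marker genes named (Tnnt2, Myl2, Ryr2, Lyz2, Acta1 and Myh2) and the neighbours of Pfkfb1, Pfkfb2 and Pfkfb3.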

Additional observations from a re-analysis of the deposited data

How the results depend on the processing

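Each of the 7 members kept the sign of its log2 fold change under all 15 alternatives that gave one, and 1 call was gained, that of Pfkfb3 with no filter on low counts (0.63, adjusted p = 0.0427 in edgeR, against 0.0630 to 0.903 when single hearts were left out). Leaving out 1 heart gave 0.24 to 0.28 for Pfkm, 0.06 to 0.20 for Pfkl, 0.04 to 0.24 for Pfkp, −1.03 to −0.36 for Pfkfb1, −0.81 to −0.22 for Pfkfb2, 0.41 to 0.87 for Pfkfb3 and −0.88 to −0.70 for Pfkfb4. Over all genes the 38 calls among 12777 tested genes became 317 among 21655 with no filter, and 139 with DESeq2. They became 18 with limma-voom and 75 at an adjusted p under 0.1. With 1 heart left out they ran from 5 (without wild-type replicate 2) to 174 (without knock-in replicate 2). The cause was not tested. Dividing by the longest transcript instead of all exonic bases, which is shorter for each member, gave mean levels of 372 for Pfkm, 37.0 for Pfkl, 6.70 for Pfkp, 2.50 for Pfkfb1, 3.71 for Pfkfb2, 1.83 for Pfkfb3 and 0.937 CPM per kilobase for Pfkfb4. The mean subunit shares then were 89.5% for Pfkm, 8.92% for Pfkl and 1.62% for Pfkp. No paired analysis was possible because the labels give no number that links a wild-type heart to a knock-in heart. With 30 to 64 counts per library, depth limits Pfkfb4 most.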

Other observations

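The genes nearest to the 3 other PFKFB members were read by the same measure, a choice made after their values were seen. Beside Pfkfb3 stood Mylip, a ubiquitin ligase that acts on the LDL receptor, Tcap, the titin cap protein of the Z-disc, and Nfkbia, the inhibitor of NF-kappaB, with root-mean-square differences of 0.11, 0.11 and 0.12 where Pfkfb3 varied by 0.49 around its mean. Nfkbia had 53.2, 45.9 and 24.6 CPM in wild-type and 70.3, 48.1 and 81.2 CPM in knock-in hearts. Tcap had 1785, 1553 and 1104 CPM against 2216, 1648 and 2759 CPM. In both genes knock-in replicate 2 lay within the wild-type range and wild-type replicate 3 was the lowest heart, as for Pfkfb3. Beside Pfkfb2 stood Hook1 and Dock5 (0.09 each) and the iron exporter Slc40a1 (0.11), which had 18.1, 21.2 and 26.9 CPM in wild-type and 11.5, 19.7 and 13.4 CPM in knock-in hearts. Beside Pfkfb1 stood Nabp1 (0.19), Intu (0.20) and Phf20l1 (0.22), farther off than the neighbours of Pfkfb2 and Pfkfb3. None of these 9 genes was called by edgeR, with adjusted p from 0.392 to 0.834. Likeness over 6 hearts describes these libraries and says nothing of shared control.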
